A study of Mus musculus with 6 samples.

Results

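The genes described here are 10 components of the circadian clock: Arntl (also called Bmal1), Clock, Per1, Per2, Per3, Cry1, Cry2, Nr1d1, Nr1d2 and Dbp. They were chosen by name, by matching the Ensembl identifiers of the deposited table to mouse gene symbols, and all 10 were found among its 24520 genes. RNA was sequenced from endothelial cells, the lining cells of vessels, sorted out of lungs of mice of wild-type genotype. Of the 6 libraries, 3 came from mice aged 18 months and 3 from mice aged 8 months. No other allele and no agent is named for either age. The sources used here do not give the hour at which lungs were taken, the lighting schedule, the markers of the sort or any pooling of mice. Nor do the labels say if each library had its own mouse, so that p-values refer to the spread among libraries, part of which may be technical. Values are TPM, a length-corrected share of a library's transcripts, which keeps no read depth, so the counting error of each value is unknown. Libraries are called the first, the second and the third within each age by the numbers in their labels, and those of 18 months are also called the older and those of 8 months the younger libraries.

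The circadian clock is a loop of transcription and protein turnover that runs in nearly every cell and takes about a day per cycle. The proteins of Arntl and Clock bind E-box motifs together and switch on the Per, Cry, Nr1d and Dbp genes. The PER and CRY proteins then block that pair, while the NR1D receptors (also called REV-ERB) repress Arntl from ROR elements, so that Arntl peaks at an opposite time of day from Nr1d1 and Dbp. In tissues with a strong rhythm, lung among them, Dbp, Nr1d1 and Arntl change severalfold over the day, Cry1 peaks late and Clock changes little. Bulk RNA taken at 1 moment shows the phase of a clock only through the ratio of such genes, and fewer cells expressing a gene cannot be told apart from less RNA per cell.

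Motifs that the clock's factors are known to bind were looked for in RefSeq start-site windows (GRCm38.p6, 250 bases before to 50 after a start), which were held for 9 of the 10 genes, all but Per2, in 13 windows. Both strands were searched for the E-box CACGTG, its variant CACGTT, the D-box TTANGTAA bound by DBP, and the core TNGGTCA of the ROR element. No match of 1 motif overlapped one of another. Of all 32851 windows in the RefSeq table, 7.15% held CACGTG, 4.68% CACGTT, 2.32% TTANGTAA and 11% TNGGTCA. Of the 9 clock genes with a window, 2 held CACGTG (Per1 and Cry1), 3 CACGTT (Cry1, Cry2 and Nr1d1), 1 TTANGTAA (Per3) and 3 TNGGTCA (Arntl, Per3 and Cry2). Over all genes of the table, the shares were 8.09%, 5.44%, 2.72% and 12.4%. Any of the 4 motifs was held by 6 of the 9 and by 25.7% of all genes. The stretches below are 30 bases long on the strand of the gene, with the match in capitals, and are shown because they hold letters that the factors of the loop are known to recognise. They are 8 of the 12 distinct matches, and the other 4, all of the ROR core in Arntl, Per3 and Cry2, are not printed.
Per1 E-box, chr11:69098771-69098800, plus strand: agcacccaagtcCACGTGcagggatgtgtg
Cry1 E-box, chr10:85185097-85185126, minus strand: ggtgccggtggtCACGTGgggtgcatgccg
Cry1 E-box variant, chr10:85185116-85185145, minus strand: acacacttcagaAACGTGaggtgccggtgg
Cry2 E-box variant, chr2:92434218-92434247, minus strand: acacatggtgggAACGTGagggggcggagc
Nr1d1 E-box variant, chr11:98775388-98775417, minus strand: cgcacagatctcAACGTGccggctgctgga
Per3 D-box, chr4:151044852-151044881, minus strand: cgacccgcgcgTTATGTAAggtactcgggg
Per3 D-box, chr4:151044805-151044834, minus strand: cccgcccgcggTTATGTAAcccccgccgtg
Arntl ROR core, chr7:113207530-113207559, plus strand: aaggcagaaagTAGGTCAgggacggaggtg
AACGTG is CACGTT read on the other strand. The Per1 match began 166 bases before a RefSeq start that lies inside the gene, whose annotated span begins upstream of it, at 69095217. The Cry1 matches began 60 and 79 bases before a start, that of Nr1d1 28 bases before and the Per3 D-boxes 205 and 158 bases before. These matches are letters in a window, with no measure of binding, and a window without one says only that the letters are not there.

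The RNA of some clock genes ranged widely among the 6 libraries, and none of the 10 was called different between the ages. Per1 ranged 3.48-fold, Nr1d1 3.11-fold and Dbp 3.63-fold from the lowest to the highest library, while Clock ranged 1.6-fold and Cry2 1.67-fold. None of the 10 genes passed the threshold of an adjusted p of 0.05 between 18 and 8 months (limma, Benjamini-Hochberg over the 12748 genes that averaged 1 TPM or more), and their lowest adjusted p was 0.420, for Cry1. Of all tested genes 0.0235% passed. At an unadjusted p below 0.05 the count was also 0 of 10, beside 13.4% of tested genes. It was 3 when the first 8-month library was left out, with an unadjusted limma p of 0.00599 for Nr1d1, 0.0201 for Cry1 and 0.0239 for Nr1d2. In that fit 334 of 12793 tested genes were higher and 1365 lower at an unadjusted p below 0.05. Cry1 also fell below that limit with median-of-ratios scaling (0.0394) and quantile normalization (0.0453). With these scalings 757 and 751 tested genes were higher and 879 and 979 lower at that limit. For none of the 10 did the 3 libraries of an age lie apart from the 3 of the other age, which was so for 18.7% of tested genes. On the log2(TPM + 1) scale, on which all log2 differences below are given as 18 minus 8 months, 3 of the 10 lay above 0 and 7 below. Their median was -0.095, beside -0.08 for all tested genes, of which 33.8% lay above 0. With median-of-ratios scaling the split was 5 above and 5 below.

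**Figure D1:**
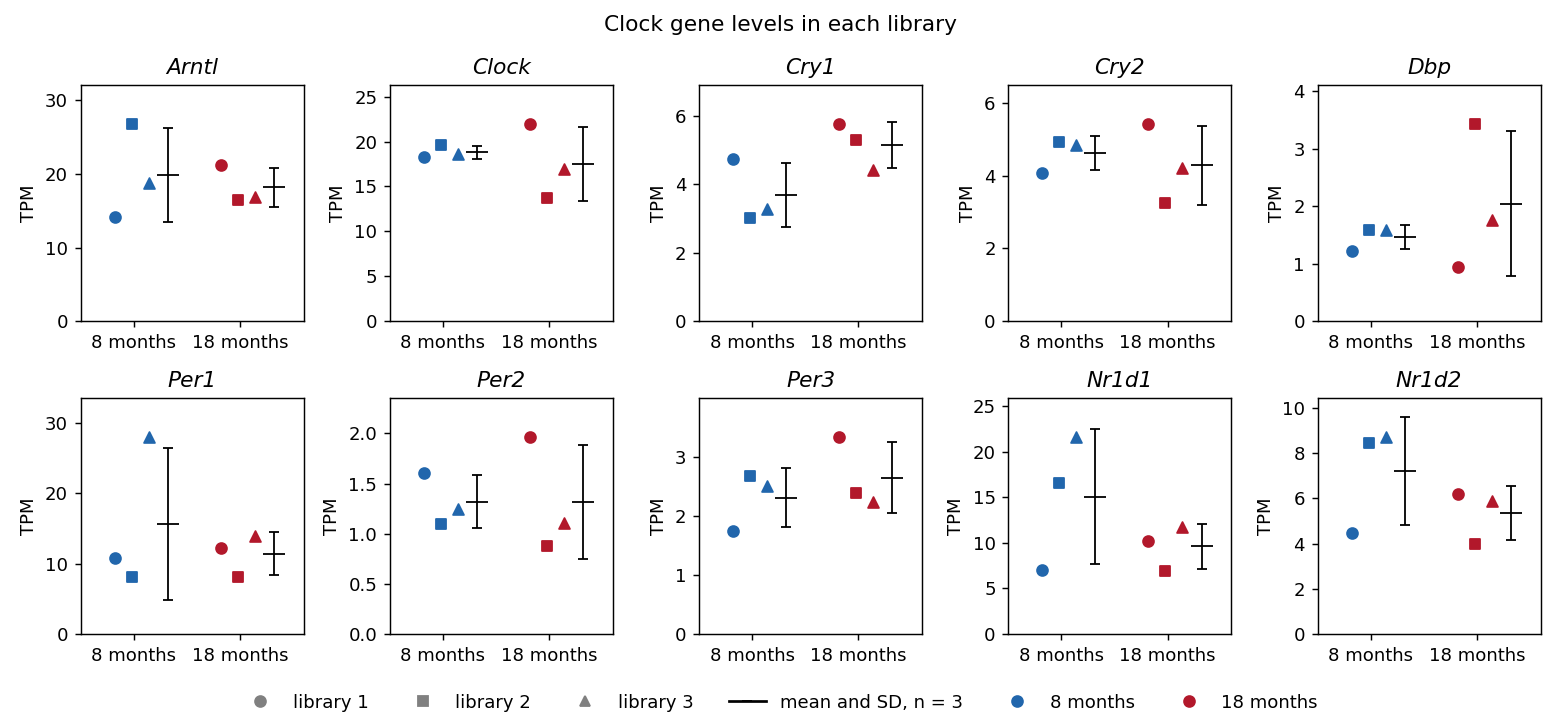
Level of each of the 10 clock genes in each library (TPM, linear axes from 0, a scale per gene), with symbols for the library number, colours for the age and a black line with bars for the mean and SD of 3 libraries. The points of the ages overlap for every gene, and Per1 and Nr1d1 are highest in the third 8-month library, at 28.0 and 21.6 TPM.

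Arntl (chromosome 7, 113207465 to 113314126 on GRCm38, plus strand), the DNA-binding activator that no circadian rhythm runs without, measured 21.3, 16.5 and 16.9 TPM in the older and 14.2, 26.7 and 18.8 TPM in the younger libraries, in the order of their numbers. The lowest and the highest Arntl values were thus both from 8 months, and the ages overlapped. Its means were 18.2 ± 2.66 TPM (SD, n = 3) in the older and 19.9 ± 6.37 TPM in the younger libraries, a log2 difference of -0.085 (SE 0.22, 95% interval -0.60 to 0.43, limma adjusted p = 0.915). Without the second 8-month library that difference was 0.14.

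Clock (chromosome 5, 76209868 to 76304792, minus strand), its dimer partner, was at 21.9, 13.7 and 16.9 TPM in the older and 18.2, 19.6 and 18.6 TPM in the younger libraries. The 8-month values lay close together, inside the range of the 18-month values. The log2 difference was -0.12 (SE 0.17, 95% interval -0.51 to 0.27, limma adjusted p = 0.820). It was 0.034 when the second 18-month library was left out. Arntl and Clock were at similar levels, with an Arntl to Clock ratio of TPM between 0.776 and 1.36.

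Npas2, which can take the place of CLOCK in the pair, had a mean below 1 TPM and was not tested, with values of 0.288, 0.573 and 0.381 TPM in the older and 0.365, 0.611 and 0.682 TPM in the younger libraries. Clock RNA exceeded it by 24.0-fold to 76.0-fold (TPM ratio). Arntl2, the paralog of Arntl, was at 0.866, 0.823 and 0.878 TPM in the older and 1.32, 1.28 and 1.16 TPM in the younger libraries. The Arntl2 values of the ages did not overlap, but the log2 difference of -0.28 did not pass (limma adjusted p = 0.549).

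Among the Per genes, whose proteins hold back the ARNTL and CLOCK pair, Per1 was by far the most abundant and the most variable. Per1 (chromosome 11, 69095217 to 69109960, plus strand) was at 12.3, 8.04 and 14.0 TPM in the older and 10.7, 8.17 and 28.0 TPM in the younger libraries. The third 8-month library thus stood above the other 5, which lay between 8.04 and 14.0 TPM. The log2 difference by age was -0.27 (SE 0.41, 95% interval -1.22 to 0.69, limma adjusted p = 0.836), and without that library it was 0.23. The SD of Per1 over the 6 libraries, 0.62 on the log2 scale, exceeded that of 94.5% of tested genes.

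Per2 (chromosome 1, 91415982 to 91459324, minus strand) was the least abundant of the 10, at 1.96, 0.879 and 1.11 TPM in the older and 1.61, 1.10 and 1.25 TPM in the younger libraries. Its highest and lowest values both came from 18 months, and the log2 difference was -0.023 (SE 0.23, 95% interval -0.56 to 0.51, limma adjusted p = 0.983). Per3 (chromosome 4, 151003652 to 151044665, minus strand) was at 3.33, 2.38 and 2.23 TPM in the older and 1.74, 2.67 and 2.5 TPM in the younger libraries, with the extremes in the first library of each age. The Per3 log2 difference was 0.14 (SE 0.20, 95% interval -0.33 to 0.62, limma adjusted p = 0.824), and it was 0.012 when the first library of either age was left out. The Per1 library that stood apart did not stand apart for its paralogs, and the Per1 to Per3 ratio ran from 3.06 to 11.2. Camta1, at 14.3 to 27.5 TPM, spans Per3 on the same strand without sharing exon bases.

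Cry1 (chromosome 10, 85131700 to 85185064, minus strand), the strong late repressor, lay at 5.75, 5.28 and 4.41 TPM in the older and 4.75, 3.02 and 3.28 TPM in the younger libraries. The third 18-month library fell below the first 8-month library, so the ages overlapped by 1 library on each side. Its means were 5.15 ± 0.678 TPM (SD, n = 3) and 3.68 ± 0.931 TPM, a log2 difference of 0.40 (SE 0.19, 95% interval -0.042 to 0.85) with the lowest unadjusted p of the 10 in limma, 0.0698, and an adjusted p of 0.420. Cry1 was above 0 in each of the other settings in which it was tested, from 0.30 without the second 8-month library to 0.56 without the first, and passed in none.

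Cry2 (chromosome 2, 92403646 to 92434043, minus strand), the weaker of the cryptochromes on the core loop, was at 5.42, 3.25 and 4.21 TPM in the older and 4.09, 4.94 and 4.84 TPM in the younger libraries, with a log2 difference of -0.10 (SE 0.19, 95% interval -0.55 to 0.34, limma adjusted p = 0.867). Its highest and lowest values were both from 18 months. The Cry1 to Cry2 ratio of TPM was 1.06, 1.63 and 1.05 at 18 months and 1.16, 0.611 and 0.678 at 8 months, so that Cry1 was the lower of the paralogs in 2 libraries, both of 8 months. An antisense transcript, D930015M05Rik, shares 295 exon bases with Cry2 and reached at most 0.175 TPM.

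Nr1d1 and Nr1d2 encode the REV-ERB receptors, which bind haem and repress Arntl. Nr1d1 (chromosome 11, 98767932 to 98775333, minus strand) was at 10.2, 6.96 and 11.7 TPM in the older and 6.99, 16.6 and 21.6 TPM in the younger libraries. The first 8-month library sat at the bottom of the range beside the second 18-month library, while the second and the third 8-month libraries stood above the other 4. Its means were 9.63 ± 2.44 TPM (SD, n = 3) and 15.1 ± 7.44 TPM, a log2 difference of -0.50 (SE 0.37, 95% interval -1.36 to 0.37, limma adjusted p = 0.622). The difference was -0.94 when the first 8-month library was left out, -0.30 when the second 18-month library was and -0.19 when the third 8-month library was.

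Nr1d2 (chromosome 14, 18204054 to 18239127, minus strand) had nearly the same order of libraries at a lower level, with 6.18, 3.97 and 5.91 TPM in the older and 4.48, 8.46 and 8.71 TPM in the younger libraries. The same pair of 8-month libraries was highest. Its log2 difference was -0.34 (SE 0.26, 95% interval -0.95 to 0.26, limma adjusted p = 0.629), and it ran from -0.61 without the first 8-month library to -0.18 without the second 18-month library. The Nr1d1 to Nr1d2 ratio of TPM stayed between 1.56 and 2.48. The 3' ends of Nr1d1 and Thra, a thyroid hormone receptor gene on the other strand, share 263 exon bases, 8.55% of those of Nr1d1, and the library kit does not mark the strand, so reads there cannot be assigned to 1 of the genes. Thra itself was at 21.9, 20.4 and 19.1 TPM in the older and 27.9, 33.1 and 26.4 TPM in the younger libraries, an order of libraries other than that of Nr1d1.

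Dbp (chromosome 7, 45705088 to 45710203, plus strand), the D-box activator that is the usual readout of the loop, was at 0.943, 3.42 and 1.76 TPM in the older and 1.22, 1.59 and 1.58 TPM in the younger libraries. Its highest and lowest values came from the second and the first 18-month library, and the 8-month values lay between them. Means were 2.04 ± 1.26 TPM (SD, n = 3) and 1.46 ± 0.212 TPM, a log2 difference of 0.23 (SE 0.30, 95% interval -0.47 to 0.93, limma adjusted p = 0.807), which became -0.084 when the second 18-month library was left out. Sphk2, on the other strand, shares 539 exon bases with Dbp, 18.0% of those of Dbp, and was at 13.9 to 23.7 TPM, well above Dbp itself. Since the library kit does not mark the strand, reads there cannot be assigned to 1 of the genes.

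**Figure D2:**
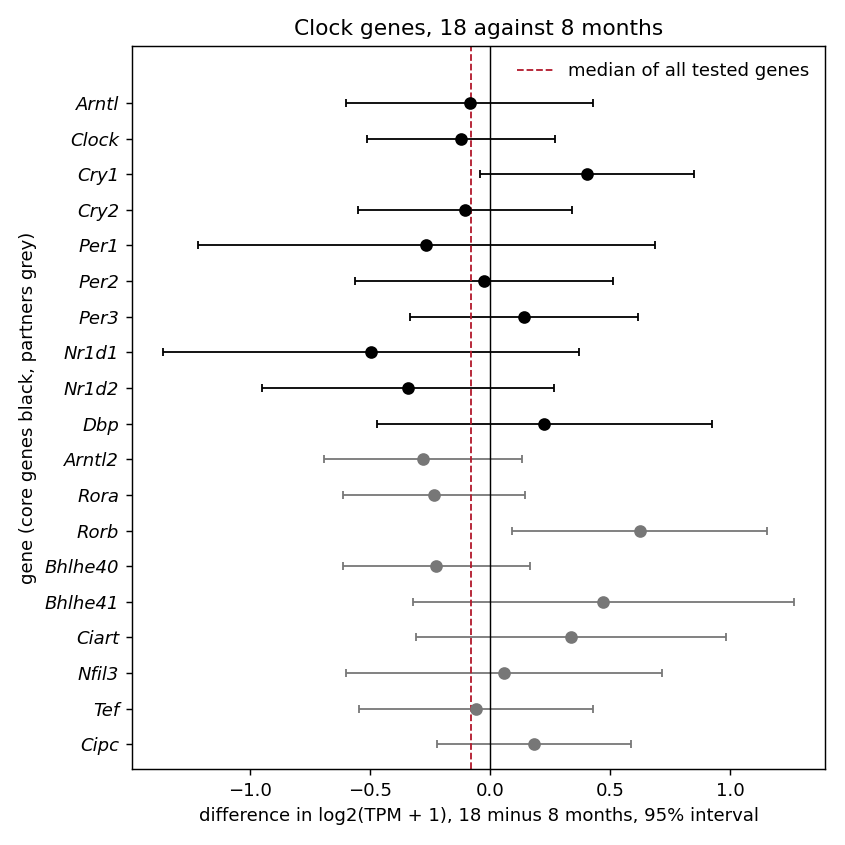
Difference of 18 minus 8 months in log2(TPM + 1) for the 10 clock genes (black) and the tested partners (grey), points with 95% intervals from limma, the dashed line marking the median of all tested genes. No adjusted p was below 0.05. The intervals of all 10 clock genes reach across 0, and Cry1, at 0.40, comes nearest to leaving it out, from -0.042 to 0.85.

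By mean TPM over the 6 libraries, which is corrected for length, the order was Arntl at 19.1 ± 4.46 TPM (SD, n = 6), Clock at 18.2 ± 2.74, Per1 at 13.5 ± 7.45, Nr1d1 at 12.4 ± 5.78, Nr1d2 at 6.28 ± 1.97, Cry2 at 4.46 ± 0.770, Cry1 at 4.41 ± 1.08, Per3 at 2.47 ± 0.525, Dbp at 1.75 ± 0.87 and Per2 at 1.32 ± 0.398. Neighbours in that order were mostly within each other's spread. The exceptions were Nr1d1 over Nr1d2, by 6.07 TPM, and Cry1 over Per3, by 1.94 TPM, which exceeded the larger SD of the pair and held in 6 of 6 libraries. Nr1d2 lay above Cry2 in 6 of 6 libraries too, by less than that SD. Clock over Per1, Per1 over Nr1d1 and Per3 over Dbp held in 5 libraries. Dbp over Per2 held in 4, Arntl over Clock in 3 and Cry2 over Cry1 in 2. The activators had the highest means, and the output gene Dbp and Per2 the lowest. In the third 8-month library, though, Per1 (28.0 TPM) and Nr1d1 (21.6 TPM) exceeded Arntl (18.8 TPM) and Clock (18.6 TPM).

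Variation between libraries was unequal among the 10 genes. The median SD of log2(TPM + 1) over the 6 libraries was 0.303 for them and 0.207 for all tested genes, and 0.235 for the 8574 tested genes with a mean from 1 to 30 TPM, a band chosen after the values were seen. After the mean of each age was subtracted the medians were 0.303 for the clock genes and 0.191 for all tested genes. Nr1d1, at 0.61, exceeded 94.2% of tested genes in SD, Dbp, at 0.40, 85.5%, and Nr1d2, at 0.40, 84.6%. Clock, at 0.215, and Cry2, at 0.211, were close to the median of tested genes.

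The extremes gathered in a few libraries. The second 18-month library was the lowest of the 6 for 6 of the clock genes (Clock, Per1, Per2, Cry2, Nr1d1 and Nr1d2) and the highest for Dbp. It was also the lowest for 38.1% of all tested genes, the largest such share of any library. The first 18-month library was highest for 5 (Clock, Per2, Per3, Cry1 and Cry2) and lowest for Dbp, while 17.9% of tested genes were highest there. The third 8-month library was highest for Per1, Nr1d1 and Nr1d2, beside 16.6% of tested genes. The third 18-month library was at neither extreme for any of the 10.

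**Figure D3:**
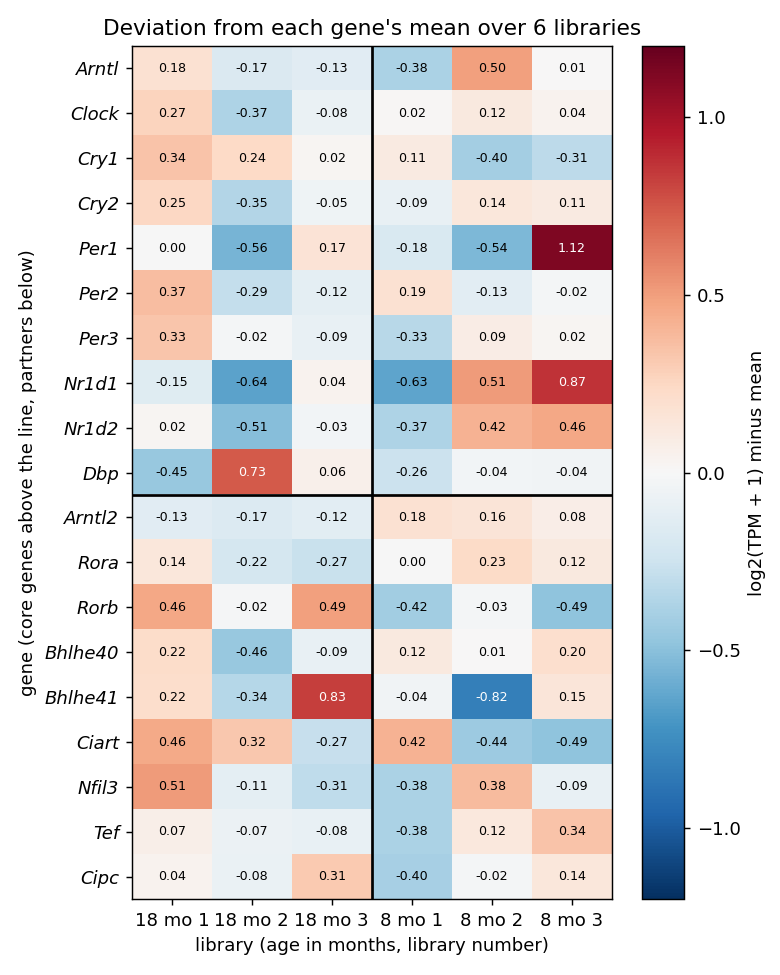
Deviation of each clock gene and tested partner (rows) in each library (columns) from the gene's own mean over the 6 libraries, in log2(TPM + 1), blue below and red above the mean. Per1, Nr1d1 and Nr1d2 are above their means in the third 8-month library, and Dbp is above its mean in the second 18-month library, where 8 of the other 9 clock genes are below theirs.

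To compare the libraries for phase, the mean log2(TPM + 1) of Per1, Per2, Per3, Nr1d1, Nr1d2 and Dbp, which peak around the same part of the day, was set against the mean of Arntl, Clock and Cry1. The difference was -1.47, -1.34 and -1.16 in the 18-month libraries and -1.41, -1.24 and -0.735 in the 8-month libraries. The third 8-month library thus had the highest difference, and the other 5 lay between -1.47 and -1.16. In that library Per1, Nr1d1 and Nr1d2 lay 1.12, 0.868 and 0.46 above their own means in log2(TPM + 1). Per2, Per3 and Dbp were near theirs, at -0.025, 0.024 and -0.042. With Arntl, Npas2 and Nfil3 as the other set instead, the third 8-month library was again highest, at 0.57. The second 8-month library was then lowest, at -0.077, and the age difference was -0.073 in place of -0.19. In the first contrast the ages averaged -1.32 ± 0.156 (SD, n = 3) and -1.13 ± 0.349 and overlapped. The contrast of Dbp with Arntl alone gave another order, -3.52, -1.98 and -2.70 at 18 months and -2.77, -3.42 and -2.94 at 8 months, with the second 18-month library highest and the first lowest. Nr1d1 and Dbp, which peak near each other in a running clock, were thus highest in different libraries. For Dbp that rests on 1 library at 3.42 TPM, with the other 5 at 0.943 to 1.76 TPM and an unknown counting error.

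Correlations among the 10 genes gave 45 pairs over the 6 libraries, 28 positive and 17 negative. By exact permutation, 2-sided, 5 pairs had a Pearson p below 0.05 and 0 passed after adjustment over the 45, with a lowest adjusted p of 0.188. The smallest permutation p that 6 libraries allow is 0.00278 for Spearman's rho and lower for Pearson's r. Both are too large for any pair to pass the adjustment by itself. For Spearman's rho the counts were also 5 and 0, with a lowest adjusted p of 0.25. Nr1d1 and Nr1d2 had r = 0.97 (exact permutation p = 0.00972, adjusted 0.203) and rho = 0.943 (exact permutation p = 0.0167, adjusted 0.25). Their r was 0.971 without the 2 libraries farthest from the median of Nr1d1, between 0.964 and 0.981 with any 1 library left out, and 0.962 after the age means were subtracted. The REV-ERB paralogs thus had nearly the same order of libraries, though the relation failed the correction.

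Clock and Cry2 had r = 0.961 (exact permutation p = 0.00417, adjusted 0.188) and rho = 0.943 (exact permutation p = 0.0167, adjusted 0.25), and r was 0.749 without the 2 libraries farthest from the median. Dbp was negatively related to 8 of the other 9 genes. So were most of the 9513 genes that averaged 5 TPM or more. Among these, Klf9, at r = -0.013 with Dbp, ranked 2958 from the top, and 32 had r above 0.9 against 217 below -0.9. With Per2, Dbp had r = -0.884 (exact permutation p = 0.0181, adjusted 0.203) and rho = -0.943 (exact permutation p = 0.0167, adjusted 0.25), and r was -0.92 without the 2 farthest libraries. With Clock it had r = -0.938 (exact permutation p = 0.0139, adjusted 0.203) and rho = -0.771 (exact permutation p = 0.103, adjusted 0.385), but -0.268 without the 2 farthest libraries, so that relation rested on them. The pair Cry2 and Dbp had r = -0.835 (exact permutation p = 0.0486, adjusted 0.375) and rho = -0.6 (exact permutation p = 0.242), and r was 0.382 without the 2 farthest libraries, on which it likewise rested.

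In a running loop Arntl is in opposite phase to Nr1d1 and Dbp, and the values of these pairs are given as a description, since the adjustment left them little room to pass. Arntl and Nr1d1 had r = 0.621 (exact permutation p = 0.192, adjusted 0.497) and rho = 0.657 (exact permutation p = 0.175, adjusted 0.518), and r was 0.298 without the 2 farthest libraries. Arntl and Dbp had r = -0.22 (exact permutation p = 0.671, adjusted 0.852) and rho = -0.2 (exact permutation p = 0.714), with r = 0.060 without the second 18-month library and -0.878 without the 2 libraries farthest from the median of Arntl. The Nr1d1 to Arntl ratio of TPM ran from 0.423 in the second 18-month library to 1.15 in the third 8-month library, and the Dbp to Arntl ratio from 0.0443 to 0.208.

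**Figure D4:**
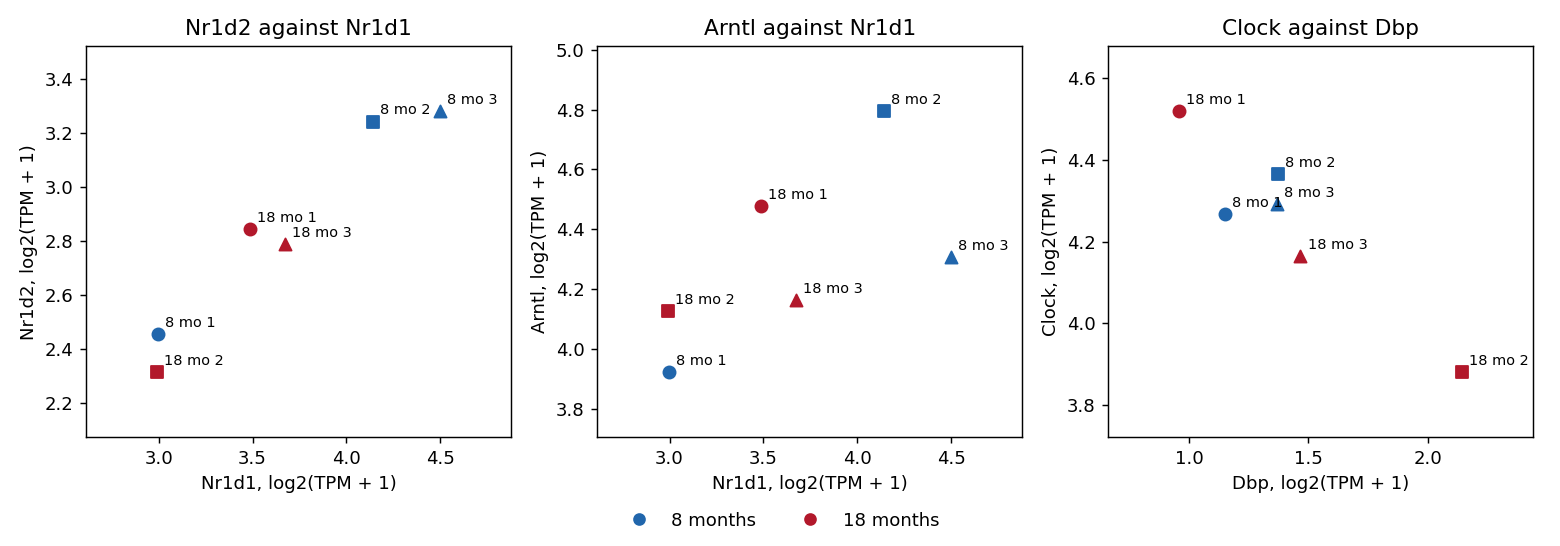
Nr1d2 against Nr1d1, Arntl against Nr1d1 and Clock against Dbp in log2(TPM + 1), 1 point per library, coloured by age and labelled. Nr1d1 and Nr1d2 lie along a line (r = 0.97), Arntl and Nr1d1 scatter (r = 0.621), and Clock against Dbp (r = -0.938) has the second 18-month library at high Dbp and the first at low Dbp.

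The partners of the loop outside the 10 genes were taken from a list of 11, of which 9 were tested, 5 above and 4 below 0, and none passed. Rora, an activator at ROR elements, was at 7.85, 5.92 and 5.66 TPM in the older and 7.04, 8.43 and 7.73 TPM in the younger libraries (log2 difference -0.23, which was -0.36 without the first 18-month library, limma adjusted p = 0.591). Rorb was at 2.54, 1.54 and 2.61 TPM in the older and 0.919, 1.52 and 0.833 TPM in the younger libraries. The Rorb values did not overlap between ages, by a gap of hundredths of a TPM, and its log2 difference of 0.62 had an unadjusted limma p of 0.0269 and an adjusted p of 0.303.

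Bhlhe40 and Bhlhe41, repressors that compete for E-boxes, lay at 43.3 to 69.8 TPM and 5.21 to 18.5 TPM, with log2 differences of -0.22 and 0.47 (limma adjusted p = 0.622 and 0.608). With 1 library left out Bhlhe40 ran from -0.39 (without the first 18-month library) to -0.049 (without the second), and Bhlhe41 from 0.18 (without the third 18-month library) to 0.76 (without the second). Ciart, another repressor of the ARNTL and CLOCK pair, was at 77.5, 70.6 and 46.3 TPM in the older and 75.3, 41.2 and 39.8 TPM in the younger libraries (log2 difference 0.34, from 0.18 without the third to 0.63 without the first 8-month library, limma adjusted p = 0.659), above each of the 10 genes in every library. It lies inside the span of the antisense gene C920021L13Rik, itself at 104.1 to 195.3 TPM, without sharing annotated exon bases, so reads from unspliced RNA of either cannot be assigned. Over the 6 libraries Ciart ran against Nr1d1 at r = -0.882, a description over libraries that share composition. Cipc, which binds CLOCK, lay between 13.3 and 22.4 TPM (log2 difference 0.18, from 0.033 without the first to 0.30 without the third 8-month library, limma adjusted p = 0.714).

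Of the other D-box factors, Tef was at 4.63, 4.11 and 4.06 TPM in the older and 3.12, 4.84 and 5.80 TPM in the younger libraries, and Nfil3, the D-box repressor, at 4.0, 2.25 and 1.84 TPM and 1.69, 3.59 and 2.31 TPM. Their log2 differences were -0.058 and 0.059 (limma adjusted p = 0.940 and 0.957). Hlf reached at most 0.549 TPM and was not tested. Tef and Nfil3 RNA thus both exceeded that of Dbp on average.

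Genes for proteins that set the stability or action of clock proteins, a list of 19 that holds kinases, a phosphatase, ubiquitin ligase parts, corepressors and other cofactors, were all tested, 5 above and 14 below 0 with a median of -0.17, and none passed. An unadjusted p below 0.05 was reached by 4, all lower at 18 months, where 9.99% of tested genes were so. Fbxw11, a ubiquitin ligase subunit that acts on PER proteins, was at 6.26, 3.59 and 5.09 TPM in the older and 9.0, 9.65 and 7.79 TPM in the younger libraries, without overlap (log2 difference -0.74, unadjusted p = 0.00614 and adjusted p = 0.195 in limma). Csnk1d, a PER kinase, was at 64.4, 55.0 and 58.6 TPM and 69.9, 67.0 and 74.5 TPM (log2 difference -0.25, limma adjusted p = 0.340). Of the 19 genes 4 had ages without overlap, all lower at 18 months, as 14.2% of tested genes were. Gsk3b, at -0.40, also had no overlap, while Csnk1a1, at -0.58, did overlap (limma adjusted p = 0.348 and 0.340). The list's median was -0.031 when the second 18-month library was left out.

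Clock output genes, a list of 10 that are commonly rhythmic, had 9 members tested, 4 above and 5 below 0, with a median of -0.0063 (between -0.027 and 0.043 with 1 library left out) and no call, adjusted or not. The 4 with the smallest unadjusted p were Coq10b (log2 difference -0.24), Leo1 (-0.12), Noct (0.22) and Usp2 (0.21), with limma adjusted p from 0.608 to 0.779. In all 4 the ages overlapped.

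Per1 is also induced directly by glucocorticoid hormones, apart from the loop, so a list of 10 genes that respond to these hormones was read beside it. It had 5 members above and 5 below 0 by age, and none passed. At an unadjusted limma p below 0.05 there were 2, both higher at 18 months, beside 3.45% of tested genes. Mt1 was at 43.6, 53.6 and 30 TPM in the older and 19.6, 14.8 and 27.1 TPM in the younger libraries (log2 difference 1.01, limma adjusted p = 0.192), and Mt2 differed by 0.99 (limma adjusted p = 0.306). Both metallothioneins lay higher at 18 months without overlap, as 4.48% of tested genes did. Pdk4 differed by 0.57 and Tsc22d3 by -0.55 (limma adjusted p = 0.401 and 0.473).

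By library, 5 of the 10 glucocorticoid-responsive genes were highest in the third 8-month library, where Per1 and 16.6% of tested genes were highest. These 5, picked out after their values were seen, were Fkbp5, Zbtb16, Klf9, Ddit4 and Errfi1. Fkbp5, a co-chaperone of the hormone's receptor, was at 3.86 TPM there and at 0.639 to 1.58 TPM in the other 5 libraries. Zbtb16 was at 14.1 TPM against 1.41 to 5.42 TPM, and Ddit4, an inhibitor of mTOR signalling, at 17.8 against 3.18 to 6.81 TPM. Among the 9512 other tested genes that averaged 5 TPM or more, Ddit4 ranked 17 by Pearson r with Per1 over the 6 libraries (0.935), Errfi1 27 (0.915) and Klf9 67 (0.875). Tsc22d3, also of the list, followed Per1 less closely, with r = 0.634 and rank 603. Sgk1 and Mt1 did not follow Per1, with r = 0.035 and 0.0075. These r values are given as a description, since the points share depth and composition.

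**Figure D5:**
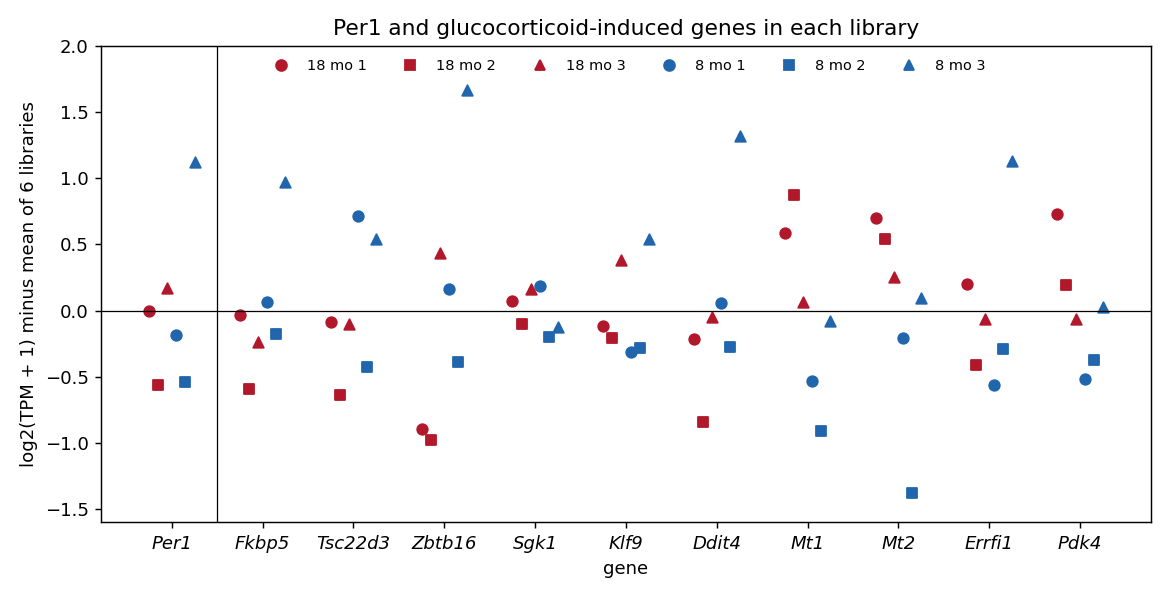
Per1 and the 10 glucocorticoid-responsive genes in each library, as log2(TPM + 1) minus the gene's mean over the 6 libraries, with colours for age and symbols for the library number. The third 8-month library, the blue triangle, is highest for Per1 (28.0 TPM), Fkbp5 (3.86 TPM), Zbtb16, Klf9, Ddit4 and Errfi1, and is not the highest for the other 5 genes.

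Temperature also sets the phase of clocks in peripheral tissue, and the list of 8 heat and cold response genes had 2 members above and 6 below 0 by age, with none past either threshold. Hsph1 differed by -1.12, Hspa1a by -0.85, Hsp90aa1 by 0.18 and Rbm3 by -0.072 (limma adjusted p from 0.495 to 0.838). Across libraries the inducible chaperone Hspa1a ran from 8.60 TPM in the second 18-month library to 109 TPM in the first, the libraries in which Clock, too, was lowest and highest. Hspa1a ranked 5 among 9512 genes by r with Clock (0.992), a place that was looked up after the values were seen. Of these genes 345 had r above 0.9 with Clock, and 38.1% of tested genes were lowest in the second 18-month library. Rbm3, a cold-inducible RNA-binding protein, was at 224, 220 and 256 TPM in the older and 216, 257 and 264 TPM in the younger libraries. Its r with Nr1d1 was 0.920, rank 116 of 9512, where 173 genes had r above 0.9. Cirbp, also of the list, ran from 46.9 to 207 TPM and had r = 0.679 with Nr1d1.

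Immediate early genes, which dissociation and stress switch on, had 4 of 10 members above and 6 below 0, a median of -0.67, and none that passed. An unadjusted p below 0.05 was reached by 3, all lower at 18 months, where 9.99% of tested genes were so. The median was -0.34 when the second 18-month library was left out and -1.04 when the first was. Dusp1, a phosphatase, was at 259, 99.6 and 145 TPM in the older and 282, 441 and 298 TPM in the younger libraries (log2 difference -1.10, limma adjusted p = 0.215). Junb differed by -1.22, Jun by -1.09 and Nr4a1 by -0.79 (limma adjusted p from 0.221 to 0.431). All 10 were lowest in the second 18-month library, which was also lowest for 6 of the clock genes and for 38.1% of tested genes. Whether heat, dissociation or hormone responses had a part in the differences between libraries was not tested.

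The genes most like Arntl and Dbp across the 6 libraries were named by Pearson r among tested genes that averaged 5 TPM or more. For Arntl these were Cxcr4, a chemokine receptor (0.994), Rnd1 (0.991), Tia1, an RNA-binding protein (0.990), Slc12a7, an ion transporter (0.982), and Igfbp4 (0.982). For Dbp they were Samhd1, a nucleotide hydrolase (0.989), Rpl13a (0.980), Rnu7 (0.972), Ap1g2 (0.964) and Ssr4 (0.961). None of these genes is a member of the clock lists used here. With 6 libraries such values are common, since 126 genes had r above 0.9 with Arntl, 32 with Dbp and 173 with Nr1d1. Nr1d2 took place 22 of 9512 for Nr1d1.

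All 10 endothelial markers were found, summing to 12353 to 13165 TPM at 18 months and 13351 to 14713 TPM at 8 months. Epithelial markers summed to 19280, 16646 and 9526 TPM in the older and 11067, 11957 and 20215 TPM in the younger libraries. That exceeded the endothelial sum in the first and second 18-month and the third 8-month library. Among them Scgb1a1 averaged 7742 TPM and Sftpc 6490 TPM over the libraries. The rest were far lower, with means of 243 TPM for Sftpa1, 139 for Sftpb, 77.2 for Hopx and 73.4 for Ager. Cdh1 averaged 10.5 TPM, Krt8 6.38, Epcam 0.616 and Foxj1 0.172. The epithelial sum thus rested mostly on Scgb1a1 and Sftpc and does not measure a share of cells. The third 8-month library, highest for Per1, Nr1d1 and Nr1d2, was also highest for 8 of 9 lymphocyte markers found (sum 78.5 TPM, against 23.7 to 34.8 TPM in the other 5) and for 7 of 8 blood markers (1888 TPM, against 339 to 733 TPM). It was highest for 6 of 10 epithelial markers (20215 TPM, against 9526 to 19280 TPM) and 5 of 10 macrophage markers, which summed to 942 to 1765 TPM at 18 months and 632 to 1819 TPM at 8 months. Mesenchymal markers summed to 18.5 to 23.7 TPM at 18 months and 34.5 to 51.8 TPM at 8 months. No marker was at 0 in all 6 libraries, but Csf1r, which defines macrophages, was at 0.745 TPM in the first 18-month library and at or below 0.00242 TPM in the other 5. The part of other cell types in the clock gene values was not tested.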

How the data were processed

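The deposited values are TPM per Ensembl gene for 6 libraries, made by the authors with kallisto on mm10, per the submitters' processing notes. The sources used here do not give its version, the transcripts or the strand setting. Per the labels' protocols, each library was made from 10 ng RNA and read at 100 bp. Columns summed to 869315 to 876126 TPM. Read depth is unknown, so no counting interval is given.

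Symbols and positions came from GENCODE M21 (GRCm38), in which 24298 identifiers matched and 222 did not. The 12748 genes averaging 1 TPM or more were tested as log2(TPM + 1) with limma 3.58.1 in R 4.3.3 (intensity trend, age as sole term, 2-sided, Benjamini-Hochberg, threshold 0.05), a scale that understates changes of low genes. Correlations used exact permutation over libraries (scipy 1.17.1). The limma step was tested on simulated data. Libraries correlated across genes at 0.974 to 0.982 within and 0.966 to 0.977 across ages.

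The members, gene lists and tests were chosen with earlier results of these data known. All 10 members, 11 partners (another is not reported here) and the genes overlapping members that have values in the table were named in every case, and so were, from each other list, up to 4 genes with the smallest unadjusted p and the 5 genes most like Arntl and Dbp. Genes otherwise named were chosen after their values were seen. Alternatives were pseudocounts of 0.1 and 0.5, other scalings and filters, library weights, no trend, a block for the replicate number, and each library left out; the last was added for correlations after the data were seen.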

Additional observations from a re-analysis of the deposited data

How the results depend on the processing

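None of the 10 clock genes passed in any setting tried, with a lowest limma adjusted p of 0.229 (Nr1d1 without the first 8-month library), and of 155 member differences 11 changed sign. Cry1, Per3, Nr1d1 and Nr1d2 kept their direction in every setting in which they were tested (Cry1 and Per3 average below 5 TPM and have no value under that filter), Cry1 between 0.30 and 0.56 and Nr1d1 between -0.94 and -0.19. Median-of-ratios scaling turned Arntl to 0.0079, Per2 to 0.024 and Tef to 0.023, quantile normalization turned Arntl to 0.0099 and Tef to 0.014, and library weights turned Nfil3 to -0.18. With each library left out in turn, the difference ran from -0.29 to 0.14 for Arntl, -0.29 to 0.034 for Clock, -0.60 to 0.23 for Per1, -0.21 to 0.11 for Per2, -0.25 to 0.044 for Cry2 and -0.084 to 0.51 for Dbp. For the partners it ran from -0.18 to 0.27 for Nfil3 and -0.26 to 0.0998 for Tef, and the median of the 19 genes that act on clock proteins from -0.26 to -0.031. The median of the 10 clock genes ran from -0.23 to 0.0068, turning without the second 18-month library. The correlation of Arntl with Dbp ran from -0.542 to 0.060, and that of Cry1 with Cry2 from -0.932 to 0.00533. Without the 2 libraries farthest from the median, Per1 and Nr1d1 had r = -0.428 and Cry1 and Cry2 r = 0.331. The contrast of Dbp with Arntl alone spanned 1.54 between libraries, with an age difference of 0.31 on the log2 scale. The causes were not tested.

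Over all genes, limma called 1 higher and 2 lower in the fit reported, 8 and 8 with median-of-ratios scaling, 9 and 7 with quantile normalization, 34 and 60 with library weights, 1 and 1 with a pseudocount of 0.1 and 2 and 1 with no trend. It called 0 with no filter on low values, where 669 and 1534 had an unadjusted p below 0.05, and between 0 and 2 with a library left out. The replicate numbers showed no sign of pairing. Same-numbered libraries had deviations correlated at -0.012, -0.09 and 0.057, and differently numbered ones at -0.069 to 0.083. With 3 libraries per age, these values cannot tell whether the numbers mark a shared day or batch. With the replicate number as a block, limma called 0 genes (422 higher and 1023 lower at an unadjusted p below 0.05), 0 of them clock genes, whose lowest adjusted p was 0.514. Unknown read depth limits the lowest genes, Per2 and Dbp, the most.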
